A study of Mus musculus with 9 samples.

Results

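The 9 genes described here encode the kinases and a scaffold of the c-Jun N-terminal kinase (JNK) pathway, and they were taken by gene symbol from a table of 17442 genes measured in mouse liver. They are Mapk8, Mapk9, Map2k4, Map2k7, Map3k5, Map3k7, Map3k11, Mapk8ip3 and Map4k4. All 9 were found in the table, and all 9 had the mean of 10 or more normalised reads needed for a test. The livers came from 9 male C57BL/6 mice fed a diet high in fat and cholesterol for 16 weeks, 4 of them wild type (labelled Msr1+/+) and 5 labelled Msr1-/-. All 9 mice were given that diet and carry the label of non-alcoholic fatty liver disease, so no liver on another diet enters a comparison. Each mouse gave 1 library of whole-liver RNA. The ages of the mice, the deleted part of Msr1 and the cells in which it is deleted were not given in the sources used here. Msr1 encodes macrophage scavenger receptor 1, which takes up modified lipoproteins, and the comparison asked whether the RNA of the JNK pathway differed on this diet without the receptor.

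JNK is the last step of a chain of protein kinases, each of which switches on the next by phosphorylation. MAP4 kinases and cell surface receptors act on MAP3 kinases, MAP3 kinases on the MAP2 kinases MKK4 and MKK7, and these on JNK, which phosphorylates c-Jun and other proteins while scaffolds hold the chain together. In fatty liver the pathway is known for its part in insulin resistance, inflammation and hepatocyte death, and it is controlled mainly by phosphorylation. RNA levels, the quantity measured here, report neither the protein nor its phosphorylation.

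The libraries held between 15006773 and 18238932 reads. Wild type 3 stood apart, with a median correlation across genes of 0.918 with the other livers, against 0.964 or more for each of the rest, so results are also given without it. Msr1 itself was read in every liver, at 255.6, 201.5, 460.5 and 194.5 normalised reads in wild type 1 to 4 and between 152.7 and 209.1 in the livers labelled Msr1-/-. The log2 difference was -0.58 (two-sided exact permutation p = 0.0476, the smallest possible being 0.0159) and -0.31 without wild type 3 (exact permutation p = 0.107). The table gives 1 total per gene, which cannot tell reads of a deleted exon from the rest, so the genotype is used as labelled. The hepatocyte markers (8 of 8 tested, including Alb and Hnf4a) summed to between 1369556 and 1993737 in wild type and between 1655700 and 2329134 in the livers labelled Msr1-/-, as whole liver should show. The 11 Kupffer cell markers, genes of the resident liver macrophage, summed to between 8493 and 18375 in wild type, with wild type 3 highest. In the livers labelled Msr1-/- they summed to between 5199 and 6978, and no marker was at 0 in all livers. All 11 had negative log2 fold changes and 2, C1qa and Spic, fell past the threshold in limma, where 1.37% of all tested genes changed. Without wild type 3 there were 5, Clec4f, C1qa, C1qb, C1qc and Spic, where 4.91% changed. In bulk tissue, fewer cells of a type and less RNA per cell cannot be told apart.

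JNK itself comes from a pair of genes in these data. Mapk8 encodes JNK1 and lies on chromosome 14 (33377898 to 33447158 in mm10, minus strand). Mapk9 encodes JNK2 and lies on chromosome 11 (49846751 to 49886421, plus strand). Mapk10, the gene of JNK3, which is known mainly from brain, was not analysed here. The proteins are close relatives, so the transcripts were compared to see whether reads could be assigned to the wrong gene. The longest stretch that the longest coding transcripts of Mapk8 and Mapk9 share without a mismatch was 23 bases, inside the coding sequence of each. It is shown in capitals, with 24 bases of each transcript on either side (GENCODE M21, 5′ to 3′), because it is the longest exact match of these transcripts.
Mapk8: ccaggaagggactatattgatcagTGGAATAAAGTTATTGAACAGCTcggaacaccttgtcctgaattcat
Mapk9: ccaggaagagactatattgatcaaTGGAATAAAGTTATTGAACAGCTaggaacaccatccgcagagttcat
No stretch of 50 bases of Mapk9, of 6924 in all, occurred in the transcripts of another gene, and 13 of the 11779 of Mapk8 did (0.11%), none of them in Mapk9. At that length the reads of JNK1 and JNK2 can be told apart.

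The JNK genes showed no difference between genotypes past the threshold. Mapk8 stood at 321.9, 358.7, 252.6 and 278.9 normalised reads in wild type 1 to 4 and at 391.1, 330.8, 311.4, 292.3 and 317.6 in Msr1-/- 1 to 5. The groups overlapped, with the lowest value in wild type 3 and the highest in Msr1-/- 1. The means were 303.0 ± 46.8 (SD, n = 4) in wild type and 328.6 ± 37.5 (SD, n = 5) in the livers labelled Msr1-/-. The limma fold, here and below taken from the means of the log2 values and not from the printed means, was 1.09, with a 95% interval from 0.886-fold to 1.34-fold (limma adjusted p = 0.756). Mapk9 was the steadiest of the 9 genes, with a coefficient of variation of 7.07% over the 9 livers. It read 780.6, 788.1, 851.2 and 850.0 in wild type and 948.5, 895.4, 855.6, 953.0 and 840.6 in the livers labelled Msr1-/-. Only Msr1-/- 5 fell below the highest wild-type value, and the other 4 lay above all wild-type livers. The mean went from 817.5 ± 38.4 to 898.6 ± 51.7, and the limma fold was 1.10, with an interval from 0.954-fold to 1.26-fold (limma adjusted p = 0.551). Without wild type 3 it was 1.11-fold, with an interval from 0.96-fold to 1.29-fold.

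Per kilobase of merged exons, Mapk9 was the higher of the JNK genes in each liver. The ratio of Mapk9 to Mapk8 was 4.66 ± 0.915 (SD, n = 4) in wild type, from 3.71 to 5.68. It was 4.65 ± 0.518 (SD, n = 5) in the livers labelled Msr1-/-, from 4.09 to 5.50. Mapk9 thus made up between 78.8% and 85.0% of the summed JNK1 and JNK2 level, and between 73.0% and 80.6% when the length was that of the longest coding transcript. The levels of the JNK genes did not move together over the livers (Pearson r = 0.0768 and Spearman rho = -0.05 over the 9 livers, given as a description). The genes whose log2 values followed Mapk8 most closely over the 9 livers were Dclre1c (r = 0.96), a DNA repair nuclease gene, Actr8 (r = 0.937) and the autophagy gene Atg16l1 (r = 0.929). For Mapk9 they were Parva (r = 0.957), which encodes a focal adhesion protein, Omd (r = 0.938) and Pik3c2g (r = 0.922), which encodes a phosphoinositide kinase of liver. These had the highest r of all named tested genes, over the same 9 libraries, which share depth and composition.

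**Figure D1:**
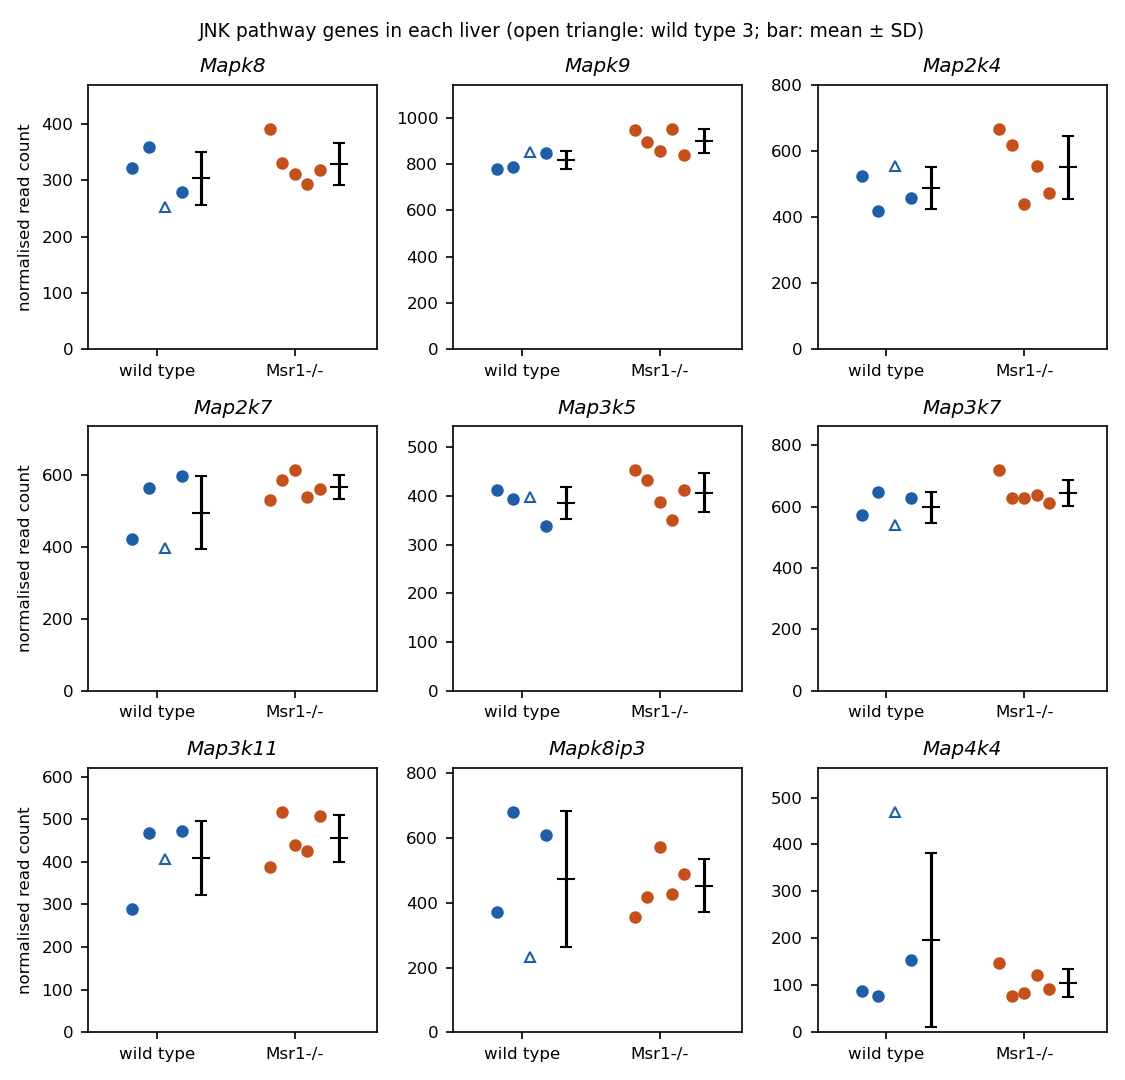
Normalised read count (vertical axis, from 0) of each of the 9 JNK pathway genes in each liver, 4 wild type (blue) and 5 labelled Msr1-/- (orange), with the mean and SD beside each group. Wild type 3 is the open triangle. The genotypes overlap in all 9 panels, and wild type 3 stands far above the rest in Map4k4, at 469.9.

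The MAP2 kinases that phosphorylate JNK also overlapped between genotypes. Map2k4 encodes MKK4, which acts on JNK and p38 (chromosome 11, 65688243 to 65788297, minus strand). Its values were 525.0, 417.8, 557.0 and 459.2 in wild type and 668.7, 620.4, 439.2, 554.3 and 472.9 in the livers labelled Msr1-/-. The highest were Msr1-/- 1 and Msr1-/- 2, and the others of that genotype lay within the wild-type range. The difference was 1.12-fold, with an interval from 0.891-fold to 1.40-fold (limma adjusted p = 0.691). Map2k7 encodes MKK7, which is dedicated to JNK (chromosome 8, 4238740 to 4247897, plus strand). Map2k7 read 421.3, 564.4, 397.7 and 596.7 in wild type and 529.9, 586.2, 612.7, 539.1 and 561.0 in the livers labelled Msr1-/-. The wild-type livers split into a lower pair, 1 and 3, and a higher pair, 2 and 4, and the higher pair lay within the narrow range of the other genotype. The means were 495.1 ± 100.1 and 565.8 ± 34.1. The limma fold was 1.16, with an interval from 0.939-fold to 1.43-fold (limma adjusted p = 0.531), and 1.08 without wild type 3. In the annotation 32.8% of the 50-base stretches of Map2k7 also belong to Gm49320, a coding gene on the same strand over the same locus, so the count of Map2k7 depends on how such reads were treated.

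The MAP3 kinases overlapped between genotypes as well. Map3k5 encodes ASK1, which responds to oxidative stress (chromosome 10, 19934472 to 20142753, plus strand), and stood at 411.7, 393.5, 397.7 and 338.7 in wild type and 452.5, 431.6, 386.3, 349.6 and 411.8 in the livers labelled Msr1-/-. The ranges largely coincided, with a 1.05-fold difference and an interval from 0.885-fold to 1.25-fold (limma adjusted p = 0.842). Map3k7 encodes TAK1, the kinase that carries signals from TNF, interleukin-1 and Toll-like receptors to JNK and NF-kB (chromosome 4, 31964097 to 32023467, plus strand). Its levels were 573.2, 648.8, 540.5 and 627.1 in wild type and 718.5, 629.2, 626.4, 636.1 and 613.1 in the livers labelled Msr1-/-. Of the latter, 4 lay between 613.1 and 636.1, inside the wild-type range, and Msr1-/- 1 stood alone above it. The fold was 1.08, with an interval from 0.926-fold to 1.26-fold (limma adjusted p = 0.683). Map3k7 shares 4.50% of its 50-base stretches with other genes, mostly with Gm8188. Map3k11 encodes the mixed-lineage kinase MLK3, known for its activation by saturated fatty acids (chromosome 19, 5688742 to 5702865, plus strand). Map3k11 showed 288.7, 467.4, 406.4 and 473.4 in wild type and 387.9, 517.7, 439.2, 424.5 and 506.9 in the livers labelled Msr1-/-. The lowest liver of each genotype was number 1, and the 1.13-fold difference had an interval from 0.881-fold to 1.44-fold (limma adjusted p = 0.694). Of the stretches of 50 bases in Map3k11, 8.43% are also in antisense or neighbouring transcripts, mostly in the antisense gene AC134563.1.

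Mapk8ip3 and Map4k4 varied most between livers. Mapk8ip3 encodes JIP3, a scaffold that binds JNK and its upstream kinases and links them to motor proteins (chromosome 17, 24892153 to 24936977, minus strand). It read 371.1, 680.5, 231.4 and 609.1 in wild type, a wider span than the 357.1, 417.9, 572.6, 428.0 and 486.9 of the livers labelled Msr1-/-. The wild-type livers held both the lowest value, in wild type 3, and the highest, in wild type 2, so the groups overlapped throughout. The log2 fold change was 0.04 with all livers and -0.26 without wild type 3, and its intervals, -0.58 to 0.67 and -0.70 to 0.18, both include no difference (limma adjusted p = 0.971 and 0.493). In the annotation 17.5% of its 50-base stretches are shared with Eme2, Mrps34 and Nme3, which overlap it, and the labels do not say whether strand was used in counting. Reads from the overlapping genes can therefore not be told apart from its own there.

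Map4k4 encodes HGK, an upstream kinase of the TNF and insulin pathways (chromosome 1, 39900913 to 40026310, plus strand). Its values were 87.7, 77.0, 469.9 and 153.7 in wild type 1 to 4, and 148.4, 77.3, 84.9, 121.6 and 93.2 in Msr1-/- 1 to 5. Wild type 3 alone was high, 3.06 times the next liver, and the other 8 lay between 77.0 and 153.7 with no separation of genotypes. The means were 197.1 ± 185.0 (SD, n = 4) and 105.1 ± 29.4 (SD, n = 5). The limma log2 fold change, from the means of the log2 values, was -0.54, with an interval from -1.54 to 0.46 (limma adjusted p = 0.653). On the recovered reads the log2 fold change was -0.93 in edgeR and -0.92 in DESeq2, where the adjusted p was 0.394 (edgeR) and 0.321 (DESeq2). Leaving out wild type 3 brought the wild-type mean to 106.1 ± 41.5 (n = 3) and the log2 fold change to 0.01 (-0.56 to 0.58, limma adjusted p = 0.988). A gap to the next liver as wide as that of Map4k4 was found in 192 of 12937 tested genes (1.48%), and wild type 3 was the highest liver in 180 of the 192. In wild type 3 the markers of lipid-associated macrophages summed to 8126, against at most 2746 in the other wild-type livers and between 1001 and 1219 in the livers labelled Msr1-/-. Those of hepatic stellate cells summed to 7492 there, against at most 3851 in the other wild-type livers and between 3058 and 3644 in the livers labelled Msr1-/-. None of these markers was at 0 in all livers, and 7 of 7 tested in each list had negative log2 fold changes. In the macrophage list 2, Lpl and Fabp5, fell past the limma threshold, and 4 of 6 tested without wild type 3 (Trem2, Lpl, Fabp5 and Tyrobp), while in the stellate list none did either way. These were not the only lists raised in wild type 3. Monocyte and neutrophil markers summed to 5642 there, against at most 1728 in the other wild-type livers. Cholangiocyte markers, a list that shares Spp1 with the macrophage list, summed to 1675 against at most 700.1. Kupffer cell markers were also highest there, as given above. T and B cell markers (128.7 against at most 281.2) and sinusoidal endothelium markers (2386 against at most 2518) were not. The part of any of these in the Map4k4 level was not tested.

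Across the 9 genes the count of differences past the threshold was 0, at an adjusted p under 0.05 in limma, where 1.37% of all tested genes passed (177 of 12937, with 86 or 0.665% higher and 91 or 0.703% lower). At an unadjusted p under 0.05 in limma the count was also 0 of 9, where 15.3% of tested genes passed. In edgeR 0 of the 9 passed at either threshold, where 1.43% of genes passed adjusted and 15.6% unadjusted, and in DESeq2 also 0, where 6.0% and 16.5% did. Without wild type 3 limma called 0 of the 9, where 4.91% of genes passed adjusted and 21.5% unadjusted. In none of the 9 were the genotypes without overlap, as against 7.29% of tested genes. A p that misses the threshold does not show that the genotypes are alike, so the intervals bear more directly on size. In 7 of the 9 genes the 95% interval lay within 1.5-fold in either direction, which held for 45.5% of tested genes, and the exceptions were Mapk8ip3 and Map4k4. The log2 fold change was above 0 in 8 of the 9, all but Map4k4, and in 52.7% of tested genes. Their median was 0.12, against 0.02 over all tested genes, and 0.09 against 0.00 without wild type 3. The 9 genes were measured in the same libraries and are not independent of each other.

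**Figure D2:**
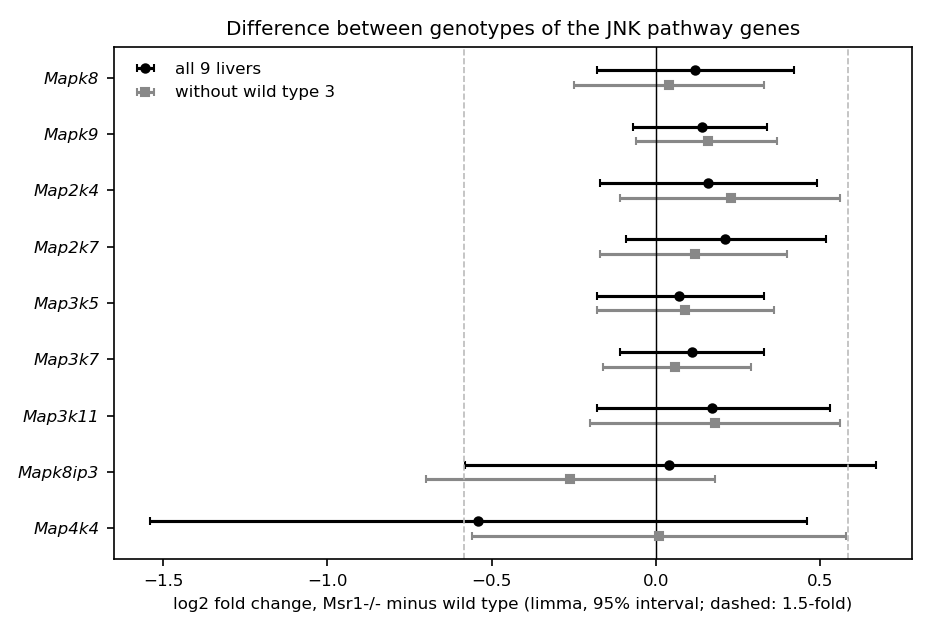
Log2 fold change of each JNK pathway gene, livers labelled Msr1-/- minus wild type, with the 95% interval of limma, over all 9 livers (black circles) and without wild type 3 (grey squares). Dashed lines mark 1.5-fold. All intervals cross 0, and the widest, that of Map4k4 from -1.54 to 0.46, narrows to -0.56 to 0.58 without wild type 3.

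Per kilobase of merged exons, averaged over the 9 livers, the order of levels ran from Map2k7 (139.6 ± 19.8, SD) through Mapk9 (127.1 ± 9.0), Map2k4 (112.3 ± 18.2), Map3k11 (98.9 ± 15.9) and Map3k7 (97.1 ± 7.7) to Map3k5 (65.2 ± 5.9), Mapk8ip3 (31.7 ± 9.6), Mapk8 (27.7 ± 3.6) and Map4k4 (15.2, from 8.0 to 49.1). The ranges of neighbours overlapped except on either side of Map3k5, which lay below Map3k7 and above Mapk8ip3 in 9 of 9 livers. With the length of the longest coding transcript, Mapk9 came above Map2k7 and Mapk8ip3 above Map3k5, while the other places held. The MAP2 kinase ratio of Map2k4 to Map2k7 per kilobase was 0.853 ± 0.275 in wild type and 0.806 ± 0.172 in the livers labelled Msr1-/-. Within wild type that ratio was 1.02 and 1.15 in livers 1 and 3 and 0.608 and 0.632 in livers 2 and 4. As counted, which MAP2 kinase was higher thus changed between livers of the same genotype. The ratio, and the place of Map2k7 in the order, depend on how reads shared with Gm49320 were treated. Livers 1 and 3 also had lower GC contrasts, described below, than livers 2 and 4 (-0.366 and -0.054 against 0.218 and 0.363). The part of the contrast in the ratio was not tested.

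By Spearman correlation the levels of Mapk8ip3 and Map2k4 varied with a GC contrast computed from the same values, whose part in their spread was not tested. The share of all tested genes that vary as closely with the contrast was not counted. The correlations are therefore not read as particular to these genes. For each liver a GC contrast was taken, the mean log2 deviation of the 10% of tested genes with the most G and C in the transcript minus that of the 10% with the least. It was -0.366, 0.218, -0.054 and 0.363 in wild type 1 to 4 and -0.416, -0.010, 0.165, 0.000 and 0.101 in Msr1-/- 1 to 5, so GC-rich transcripts stood lowest in liver 1 of both genotypes and highest in wild type 4. Mapk8ip3, whose longest transcript is 57.4% GC, rose with the contrast (Spearman rho = 0.93, exact permutation p = 0.00075, adjusted over the 9 genes 0.00675). Its Pearson r was 0.67 (exact permutation p = 0.0496, adjusted 0.112), 0.81 without the livers of most extreme contrast, wild type 1 and Msr1-/- 1, and 0.90 without wild type 3. Map2k4, at 45.0% GC, went the other way (rho = -0.83, exact permutation p = 0.00827, adjusted 0.0372, and r = -0.74, exact permutation p = 0.0217, adjusted 0.112), with r = -0.79 without those livers. For Map2k7 (56.0% GC) rho was 0.77 and r 0.59, with adjusted exact permutation p of 0.0642 and 0.136. Map3k5 (rho = -0.72) and Map3k11 (rho = 0.63) likewise missed the threshold after adjustment (exact permutation p, adjusted, of 0.0829 and 0.137). Their Pearson r was -0.68 and 0.72 (exact permutation p, adjusted, 0.112 for each). It was -0.51 and 0.26 without the livers of most extreme contrast. By Pearson r no gene passed after adjustment. Mapk8, Mapk9, Map3k7 and Map4k4 had a rho between -0.30 and 0.08. The genotypes hold 4 and 5 livers, too few for a correlation within each. With the contrast as a term beside genotype, a fit chosen after seeing the data, 0 of the 9 passed, the smallest limma adjusted p being 0.242 for Map2k7, and the log2 fold change of Mapk8ip3 was 0.13.

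**Figure D3:**
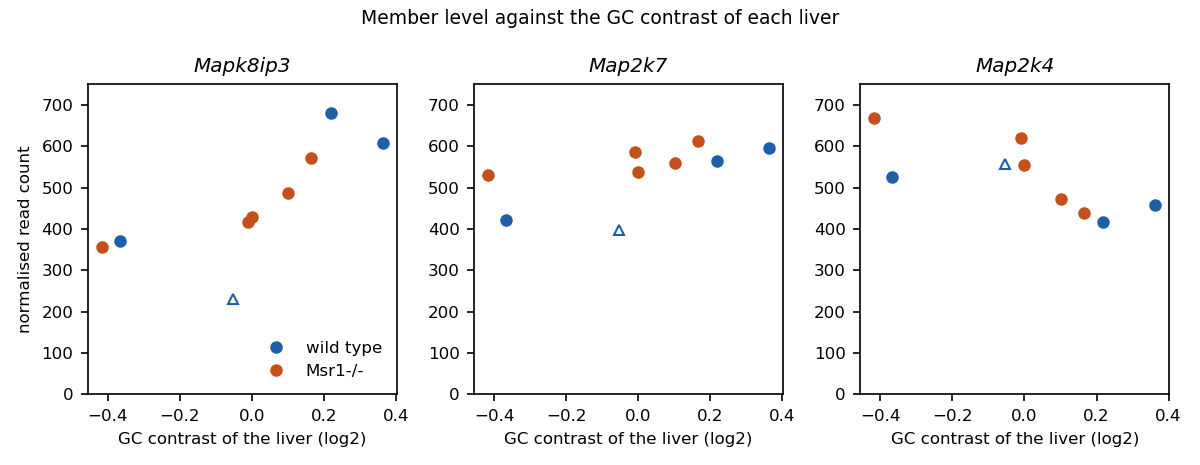
Normalised read count (vertical axis, from 0) of Mapk8ip3, Map2k7 and Map2k4 against the GC contrast of each liver (log2, horizontal axis), wild type in blue with wild type 3 as the open triangle and Msr1-/- in orange. Mapk8ip3 climbs with the contrast except in wild type 3, which lies below the rest, and from wild type 2 to wild type 4, while Map2k4 declines from 668.7 in Msr1-/- 1 at a contrast of -0.416.

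Among 78 other genes of the pathway and its neighbours, in 7 lists, 74 could be tested and 0 passed the adjusted threshold in limma. At an unadjusted p under 0.05 there were 8 of 74 (10.8%, against the 15.3% of all tested genes), 37 log2 fold changes were above 0 and 37 below, and the median was 0.00. In edgeR 0 of the 74 passed the adjusted threshold, where 1.43% of all tested genes did, and in DESeq2 2, Map3k1 and Cd14, where 6.0% did. Without wild type 3 limma called 1, Map3k13, where 4.91% of all tested genes passed.

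The other MAP3 kinases (13 tested, 8 above 0 and 5 below, median 0.10, and 0.09 without wild type 3) held the largest share of unadjusted p values under 0.05, 3 of 13. Map3k1 encodes MEKK1, a MAP3 kinase of the JNK chain. Map3k1 stood at 222.4, 211.0, 269.1 and 239.1 in wild type and at 179.1, 163.4, 123.3, 129.8 and 164.3 in the livers labelled Msr1-/-. Every wild-type liver lay above all 5 of the other genotype. Map3k8, Map4k5, Cd14 and Mapk11 were the only other tested genes of the lists without overlap, against 7.29% of all tested genes. The log2 fold change was -0.64 (limma adjusted p = 0.0613), -0.57 without wild type 3 (adjusted p = 0.053), and in DESeq2 the adjusted p was 0.00379. Map3k13, which encodes a leucine zipper-bearing kinase that can activate JNK, read 55.6, 45.4, 97.3 and 58.8 in wild type and 92.2, 107.6, 89.5, 115.8 and 138.3 in the livers labelled Msr1-/-. Wild type 3 fell within the range of the other genotype and the other 3 wild-type livers below it. Its log2 fold change was 0.79 (limma adjusted p = 0.115), and without wild type 3 it was 1.01 (adjusted p = 0.0115).

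The remaining lists held no called gene over all 9 livers. Of 6 other MAP4 kinases (median -0.19, and -0.30 without wild type 3), Map4k5 stood at 271.5 ± 31.5 in wild type and 214.7 ± 14.7 in the livers labelled Msr1-/-, without overlap (limma adjusted p = 0.202), and Tnik at 26.5 ± 7.3 and 17.0 ± 4.4. The 10 scaffolds and adaptors (2 above 0 and 8 below, median -0.09, and -0.01 without wild type 3) were led by Mapk8ip1, the gene of JIP1, at 17.7 ± 5.2 and 13.1 ± 4.5, and Tab3, a TAK1 binding partner, at 143.8 ± 10.5 and 127.7 ± 22.8. The list of JNK phosphatases (7 tested, median 0.03, and 0.24 without wild type 3) had its smallest p in Dusp22 (226.0 ± 35.0 and 251.1 ± 28.9) and Dusp4 (13.7 ± 7.3 and 10.1 ± 2.7). The log2 fold change of Dusp4 was -0.30, and -0.01 without wild type 3. Among 14 substrates and targets (median -0.14, and 0.10 without wild type 3), Irs1, the insulin receptor substrate that JNK can phosphorylate, stood at 39.2 ± 11.8 and 64.4 ± 17.1 (limma adjusted p = 0.207), and the transcription factor gene Atf2 at 364.3 ± 26.7 and 303.6 ± 37.8 (limma adjusted p = 0.315). The receptors (10 tested, median -0.06, and -0.01 without wild type 3) included Cd14, a co-receptor of Toll-like receptors and a monocyte and macrophage gene, at 35.3, 40.1, 138.9 and 48.4 in wild type and between 19.2 and 26.4 in the livers labelled Msr1-/-. The groups of Cd14 did not overlap, its log2 fold change was -1.24 and its limma adjusted p 0.118 (0.0523 without wild type 3, 0.0114 in DESeq2), and the Kupffer cell markers given above were lower in the same livers, their part in the Cd14 values not being tested. Tgfbr1, a receptor of TGF beta, averaged 443.5 in wild type and 348.1 in the livers labelled Msr1-/- (limma adjusted p = 0.361). Of 14 kinases of the parallel ERK and p38 routes (10 above 0 and 4 below, median 0.07, and -0.01 without wild type 3), Mapk11, a p38 gene, went from 30.3 ± 5.0 to 19.1 ± 0.9 without overlap (limma adjusted p = 0.176), and Mapk7 from 48.5 ± 9.6 to 37.4 ± 7.1.

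**Figure D4:**
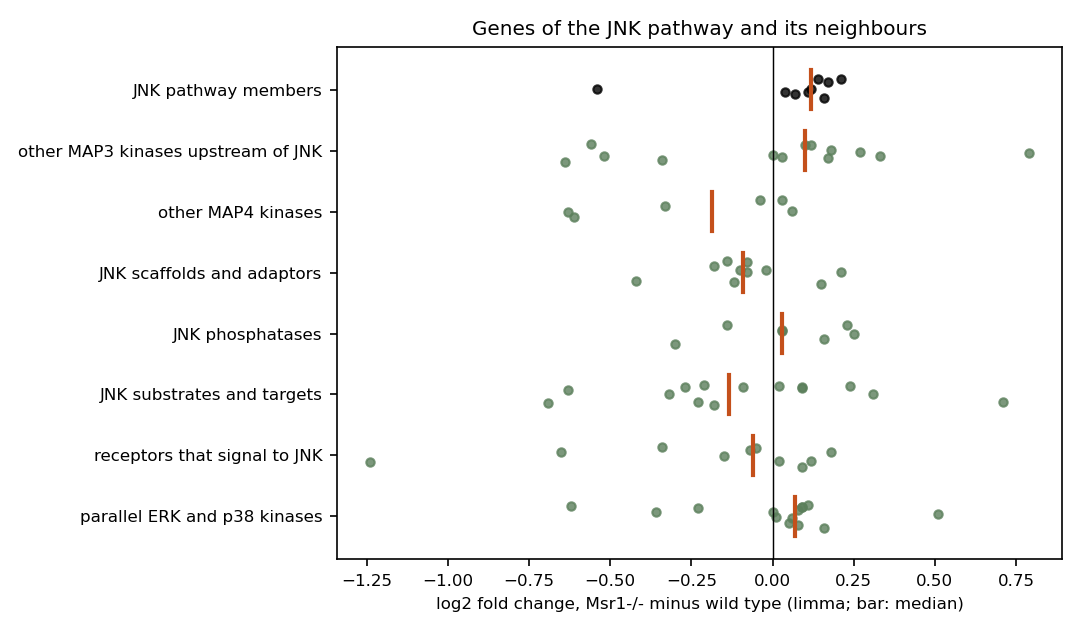
Log2 fold change (limma, livers labelled Msr1-/- minus wild type) of each tested gene, with the 9 JNK pathway genes in black, 74 other genes of 7 lists in green and the median of each list as a bar. The medians lie between -0.19 and 0.12, and the point farthest from 0 is Cd14 at -1.24.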

How the data were processed

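Whole-liver RNA of 9 mice was sequenced (TruSeq RNA Library Prep Kit v2, per the labels' protocols). The authors deposited 1 table of signal, in which the reads of each gene are scaled by a size factor for each liver. The tools STAR, HTSeq and DESeq2 and the build mm10 are listed per the submitters' processing notes, and strand use is not given in the sources used here. Each value was a whole multiple of 1 step within 0.01 reads (100% of values), so reads were recovered. Genes with a mean of 10 or more (12937 of 17442) were tested on log2(value + 1), so that fold changes understate low genes. The test was the moderated test of limma 3.58.1 (R 4.3.3), with genotype alone in the model and a trend of variance on level, called at an adjusted p (Benjamini-Hochberg, over all tested genes) under 0.05. Alternatives used DESeq2 1.42.0 and the quasi-likelihood test of edgeR 4.0.16 on recovered reads, pseudocounts of 0.5 and 5, no filter or a mean of 50, TMM and quantile scaling, array weights, an animal number block, each liver left out, and, added after seeing the data, the GC contrast as a term and another length. Lengths and coordinates came from GENCODE M21 (GRCm38, the assembly of mm10). GC content was known for 97.7% of tested genes. The limma script was tested on simulated data.

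The members, lists and naming rule were chosen with earlier results of these data known. Named are Msr1, the 9 members and, in each other pathway list, called genes by smallest p (up to 4) or, with fewer than 2 called, the 2 genes of smallest p, and for Mapk8 and Mapk9 the 3 genes of highest r, leaving out Gm-numbered and Rik names. Marker lists of the T and B cell, monocyte and neutrophil, sinusoidal endothelium and cholangiocyte classes were also counted. Their medians were -0.60 (7 tested), -1.47 (7), -0.01 (6) and -1.15 (3), with 1 called gene, Sox9, and 4 without wild type 3 (Lyz2, Csf3r, Cx3cr1 and Sox9). The replicates are separate animals, and no pair of libraries was a duplicate (lowest chi-square per degree of freedom 16.3).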

Additional observations from a re-analysis of the deposited data

Results flagged for a closer look

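For 23 genes (the 9 members and 14 named pathway genes) the highest and the lowest liver of each genotype were compared with the nearest other liver by Dixon's criterion, 46 groups in all, and 5 were flagged. For independent groups of normally distributed values chance flags about 1 in 20. The groups here share the same libraries, and the share flagged over all tested genes was not counted. Map3k7 stood at 718.5 in Msr1-/- 1, above the 636.1 of the next liver of that genotype. Tab3 was also high in Msr1-/- 1, at 167.4 against 126.3 in the next. That liver was the highest of the 9 in 12.8% of all tested genes, and a link between Tab3 and Map3k7 was not tested. Mapk8ip1 stood at 21 in Msr1-/- 4, where the next liver had 11.7. Tnik was high in wild type 1, at 37.4 against 23.5. Cd14 in wild type 3, at 138.9, was far above the 48.4 of wild type 4. Map4k4 in wild type 3 fell just under the limit for 4 livers, with a gap of 0.805 of the range of wild type.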

How the results depend on the processing

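None of the 9 JNK pathway genes passed the adjusted threshold under any of the 20 alternatives, and the direction of Mapk8, Mapk9, Map2k4, Map2k7, Map3k5, Map3k7 and Map3k11 held in each. Mapk8ip3, at 0.04 on the log2 scale, turned to -0.066 in edgeR, -0.067 in DESeq2 and -0.227 with array weights, and on leaving out a liver lay between -0.261, with wild type 3 left out, and 0.256, with wild type 2 left out. It was also negative without wild type 1 (-0.035) and Msr1-/- 3 (-0.049). On leaving out a liver Map4k4 lay between -0.854 (wild type 2 left out) and 0.01 (wild type 3 left out). The cause was not tested. Over all genes the 177 calls became 773 in DESeq2, 531 with array weights and between 36 and 629 on leaving out a liver: 87, 64, 629 and 192 without wild type 1 to 4, and 46, 36, 50, 47 and 65 without Msr1-/- 1 to 5. The exact permutation result of Msr1 missed the threshold without any liver but Msr1-/- 3, at differences between -0.719 and -0.306. Map3k1 and Cd14 passed in DESeq2 and with array weights (limma adjusted p = 0.042 and 0.0432 with weights), and Map3k13 with array weights and without wild type 3 (limma adjusted p = 0.0178 and 0.0115).

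With the animal number as a replicate block, 8 genes were called over all genes and none of the 9. The numbers only name the animals: deviations of same-numbered animals correlated at 0.025, -0.077, -0.102 and 0.218, and 0 of 4 wild-type livers correlated best with its own number. The 9 genes held 73 to 1085 recovered reads per liver.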

Other observations

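A few early response genes of the fixed lists differed widely between livers of a genotype, and those named here were chosen after their values were seen. Others of the list of substrates and targets varied less, such as Sh3bp5. It ranged from 567.6 to 686.5 in wild type and from 621.0 to 709.3 in the livers labelled Msr1-/-. Junb ranged from 201.5 to 242.9 in wild type but from 121.9 to 255.4 in the other genotype, highest in Msr1-/- 2. Jun, which encodes the transcription factor JNK is named for, stood at 611.9 in wild type 3 and 558.8 in Msr1-/- 2, and between 51.3 and 142.5 in the other 7 livers. Atf3, a stress-induced transcription factor gene, was highest in the same livers, at 287.1 and 67.5, against 7.4 to 36.0 elsewhere. Fos likewise read 34.5 and 20.6 there and at most 12.7 in the rest. Dusp1, an early response phosphatase gene, stood at 970.8 in Msr1-/- 2, while wild type 3, at 287.1, lay below wild type 2 (541.2), wild type 4 (349.1) and Msr1-/- 4 (312.2). In wild type 3 and Msr1-/- 2 Mapk8 was at 252.6 and 330.8 and Mapk9 at 851.2 and 895.4, within the range of the rest for Mapk9 and, for Mapk8, lowest of all in wild type 3. Dusp8, a phosphatase gene that acts on JNK, read 85.5 in wild type 3 and between 1.1 and 23.5 in the other livers. Between genotypes the log2 fold changes were 0.31 for Jun, -0.63 for Atf3, -0.69 for Fos, 0.25 for Dusp1 and 0.03 for Dusp8, with limma adjusted p between 0.562 and 0.993. Without wild type 3 they were 1.01 for Jun, 0.35 for Atf3, whose direction turned, -0.29 for Fos, 0.24 for Dusp1 and 0.95 for Dusp8 (limma adjusted p between 0.241 and 0.818).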
